A study of Homo sapiens with 15 samples.

Results

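The 10 genes described here are the oxygen-regulated transcription factor subunit HIF1A, the oxygen sensors EGLN1 and EGLN3, and 7 genes known as targets of that factor, namely BNIP3, BNIP3L, VEGFA, ADM, NDRG1, ANKRD37 and KDM3A. They were chosen by name, with earlier results of these data known, as the rows of the deposited tables whose gene symbol equals a member. They make up 10 of the 16109 genes listed in the series. The PC3 table lists 9 of them (EGLN3 is not listed), the P493-6 MYCi975 table lists 9 (NDRG1 is not listed) and the P493-6 tetracycline table lists all 10. A gene is listed in a table where at least 2 of its libraries exceed 1 CPM, the reads of a gene scaled to a common library total, so the counts of members below are counts of the listed members.

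HIF proteins are pairs of an alpha subunit, such as HIF1A, and the constant partner ARNT. At normal oxygen the EGLN prolyl hydroxylases mark the alpha subunit, the VHL ubiquitin ligase binds the marked protein and the proteasome destroys it; at low oxygen the subunit escapes, pairs with ARNT and switches on genes for glycolysis, vessel growth and mitochondrial turnover. EGLN1 and EGLN3 are themselves HIF targets and so form a feedback loop. HIF and MYC share a binding-site core and many glycolytic targets, and hydroxylation acts on HIF1A protein, which RNA sequencing does not measure.

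The study asked how the small molecule MYCi975, an inhibitor of the MYC protein, changes transcripts, in 15 RNA libraries in 5 groups of 3, all collected after 24 h. PC3 is a human prostate cancer line, and its libraries came from cells given 8 µM MYCi975 in DMSO and from DMSO controls. P493-6 is a human B cell line, which the labels class with Burkitt lymphoma and describe as overexpressing MYC; its MYC transgene is of the kind that tetracycline switches off. Its libraries came from cells given 6 µM MYCi975 in DMSO, cells given 0.1 µg/ml tetracycline in water, and DMSO controls that serve both treatments. Each line stands for a single cell culture model, no label gives an oxygen level, and the tetracycline cells differ from their controls in vehicle as well as in drug, so those cannot be told apart. The labels do not state that replicates are separate cultures, and a p-value here covers only replicate-to-replicate spread, possibly technical.

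The read totals to which CPM was scaled ran from 8162582 to 15926008 a library. All 8 B cell markers checked were listed in P493-6, with summed levels of 4494 to 4814 CPM in MYCi975 libraries, 11673 to 12083 CPM in tetracycline libraries and 3958 to 4191 CPM in controls, and 1 of the 8, CD74, was listed in PC3 at 1.25 to 4.27 CPM. All 8 epithelial markers were listed in PC3, with sums of 1863 to 2006 CPM in MYCi975 libraries and 2122 to 2143 CPM in controls. In P493-6 they came to 13.3 to 14.3 CPM with MYCi975 (EPCAM alone), 1.82 to 2.75 CPM with tetracycline (EPCAM and KRT19) and 10.7 to 11.9 CPM in controls (EPCAM alone). The MYC transcript stood at 152, 145 and 149.8 CPM in tetracycline libraries, against 4692, 4701 and 4791 CPM in P493-6 controls, which checks the switch. MYCi975 acts on the protein, and the MYC transcript was higher in treated libraries than in controls: 378, 359 and 386 CPM in PC3 MYCi975 libraries against 301, 300.4 and 309 CPM in PC3 controls, and 5138, 5084 and 5132 CPM in P493-6 MYCi975 libraries against the control values above.

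The DNA in front of the members shows where the letters read by HIF and by MYC lie. HIF is known to bind ACGTG or GCGTG, and MYC is known to bind CACGTG, which holds ACGTG on both strands. The set of RefSeq promoters used here (GRCh38.p14) held 7 of the 10 members, with several starts for HIF1A and KDM3A. The 250 bases before each start were searched on both strands. ACGTG or GCGTG was found before a start of 6 of these 7 members (not EGLN3), and in 43.2% of all 35116 promoters of that set with the same length. CACGTG was found in 2, BNIP3 and ANKRD37, and in 6.34% of all promoters. Members were counted once over all their starts (9 sequences in all), and the shares are of single promoter sequences, so the units differ. Promoters of 4 members are printed to show a pair of members with the MYC letters beside a pair without them: BNIP3 (chr10:131981924-131982173, minus strand) and ANKRD37 (chr4:185396591-185396840, plus strand), which hold CACGTG, and EGLN1 (chr1:231422288-231422537, minus strand) and KDM3A (chr2:86441211-86441460, plus strand), which do not. Each runs 5′ to 3′ and ends at the base before the start, and capitals mark these motifs, where CACGC is GCGTG read from the other strand.
BNIP3: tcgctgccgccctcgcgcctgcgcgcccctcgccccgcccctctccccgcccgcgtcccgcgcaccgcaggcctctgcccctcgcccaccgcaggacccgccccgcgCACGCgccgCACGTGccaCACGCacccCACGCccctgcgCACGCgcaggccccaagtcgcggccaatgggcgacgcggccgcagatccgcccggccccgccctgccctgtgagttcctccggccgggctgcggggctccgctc
ANKRD37: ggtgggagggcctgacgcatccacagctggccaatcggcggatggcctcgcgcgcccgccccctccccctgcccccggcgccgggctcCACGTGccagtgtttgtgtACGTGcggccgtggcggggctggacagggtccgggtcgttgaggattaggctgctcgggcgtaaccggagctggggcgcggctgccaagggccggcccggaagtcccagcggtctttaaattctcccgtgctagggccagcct
EGLN1: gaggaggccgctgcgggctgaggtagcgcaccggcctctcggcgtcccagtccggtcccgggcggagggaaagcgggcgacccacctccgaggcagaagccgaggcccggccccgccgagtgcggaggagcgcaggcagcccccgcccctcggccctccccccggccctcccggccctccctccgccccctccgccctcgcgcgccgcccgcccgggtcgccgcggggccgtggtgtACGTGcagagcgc
KDM3A: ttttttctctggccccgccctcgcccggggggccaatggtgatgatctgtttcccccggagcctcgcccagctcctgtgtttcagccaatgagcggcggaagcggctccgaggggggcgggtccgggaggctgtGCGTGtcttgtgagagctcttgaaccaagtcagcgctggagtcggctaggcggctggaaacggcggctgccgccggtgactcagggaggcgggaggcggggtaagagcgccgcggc
BNIP3 holds CACGTG at -134 to -129 from the start, with 4 copies of CACGC around it between -143 and -100. ANKRD37 holds CACGTG at -162 to -157 and ACGTG at -143 to -139. EGLN1 holds a single ACGTG at -13 to -9, and KDM3A a single GCGTG at -116 to -112. A match describes these letters and is not a measured binding site. VEGFA, BNIP3L and NDRG1 were not in the promoter set used and are named here without a sequence.

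VEGFA and BNIP3L rose with MYCi975 in both lines, and EGLN1 fell in PC3 and rose in P493-6. In PC3 given MYCi975, NDRG1 and VEGFA rose 2.22-fold and 2.03-fold, HIF1A and BNIP3L rose less, and EGLN1 fell. In P493-6 given the same compound, EGLN1, BNIP3, BNIP3L, VEGFA, ADM, ANKRD37 and KDM3A rose. With the MYC transgene switched off, VEGFA, BNIP3, EGLN3 and EGLN1 fell, and HIF1A, BNIP3L, KDM3A and NDRG1 rose. These verbs mean a limma adjusted p (Benjamini-Hochberg over all genes of the comparison) under 0.05 on log2(CPM + 1), a scale that understates the changes of genes at a few CPM. The EGLN1 fall with tetracycline and the ANKRD37 rise with MYCi975 in P493-6 lost their calls in some alternative fits, given below. ADM with MYCi975 and NDRG1 with tetracycline were listed in P493-6 only through the treated libraries, so the listing rule itself favoured their rises. CPM is a share of a library, so a change in the make-up of a culture and a change in RNA per cell cannot be told apart.

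**Figure D1:**
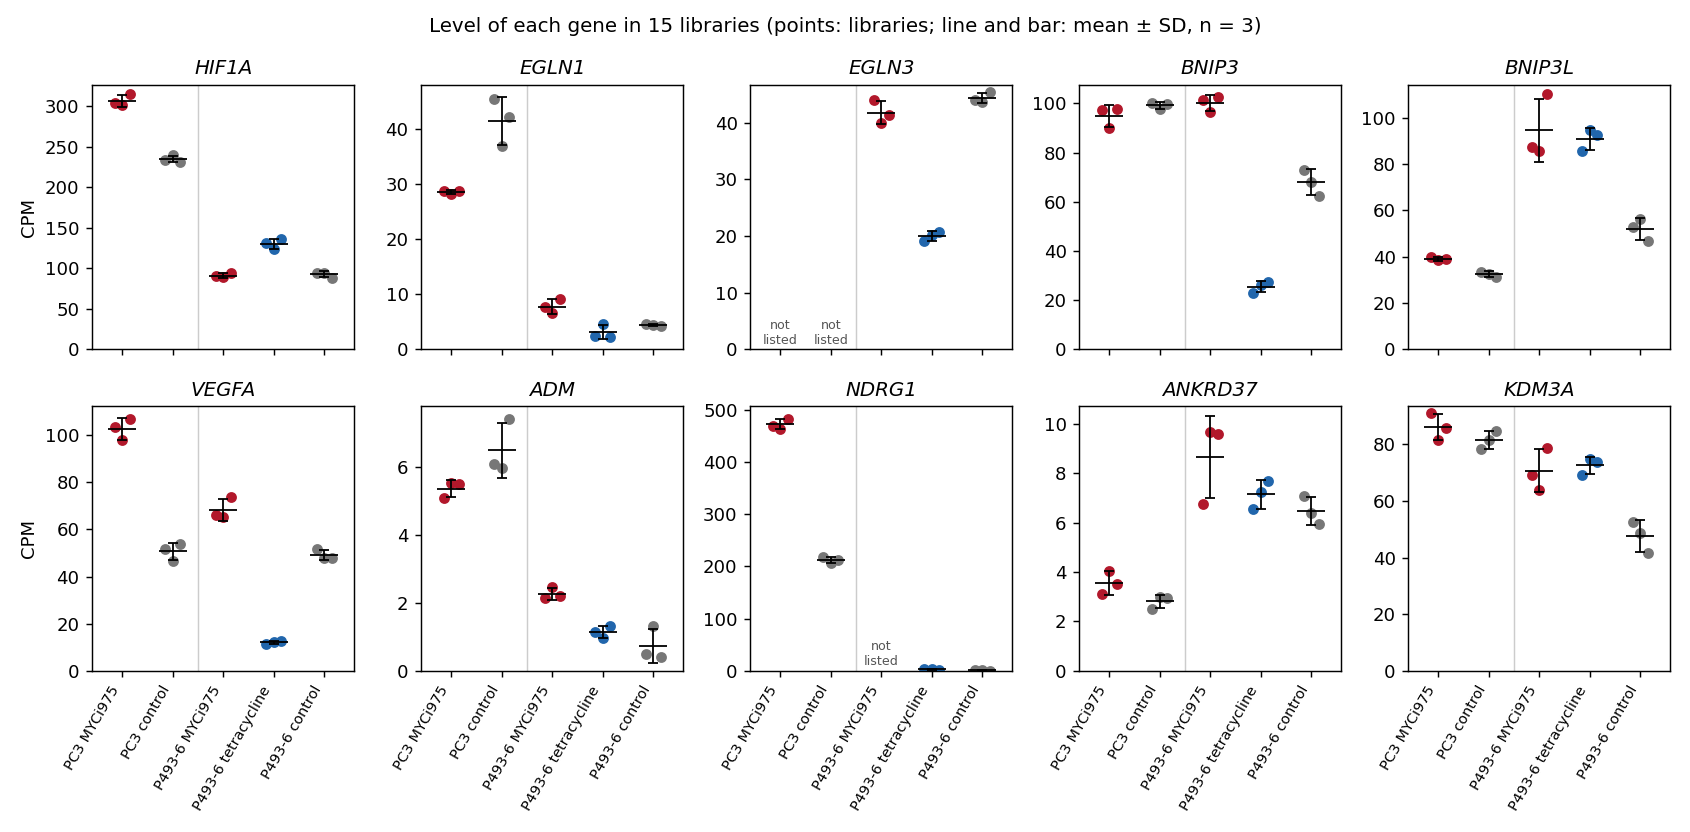
Level of each of the 10 genes (CPM, linear axes that start at 0 and differ between panels) in the 15 libraries, with points for libraries, and a line and bar for the mean ± SD of 3. VEGFA and BNIP3 stood lowest in the tetracycline libraries, at 12.01 and 25.5 CPM on average, and NDRG1, at 472 and 213 CPM in the PC3 groups, was near the axis in P493-6.

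Counted over members, 4 of the 9 listed in PC3 rose with MYCi975 (HIF1A, BNIP3L, VEGFA and NDRG1), 1 fell (EGLN1) and 4 did not pass the test. Of all 13751 genes tested there, 59.2% were called, 29.0% higher and 30.1% lower, so a call in PC3 was common. All 3 treated libraries lay above all 3 controls for 5 members and below them for 2, as did 30.2% and 31.7% of all genes (61.9% either way). The members' median log2 fold change was 0.25, against -0.002 over all genes. In P493-6 given MYCi975, 7 of 9 rose and the other 2 (HIF1A and EGLN3) did not pass, where 28.6% of 12998 genes were called, 10.6% higher and 18.0% lower. The groups did not overlap for 6 members, all higher, where 15.2% of all genes were so placed higher and 24.8% lower (40.0% either way). The median of the members was 0.56, against -0.04 over all genes. ADM counts among those higher although it was listed here only through its MYCi975 libraries. With TMM scaling the calls over all genes in this comparison split into 1819 higher and 1690 lower, against 1375 and 2338 as reported. With tetracycline 4 of 10 rose, 4 fell and 2 did not pass, where 78.1% of 13703 genes were called, 36.2% higher and 41.9% lower, so the members' count stands close to that of all genes. The groups did not overlap for 4 members higher and 3 lower, as for 36.3% and 42.1% of all genes (78.4% either way). Their median was 0.23, against -0.05 over all genes. NDRG1 counts among those higher although it was listed here only through its tetracycline libraries. In the authors' deposited tables, 4 members are marked up and 1 down in PC3, 6 up with MYCi975 in P493-6, and 4 up and 3 down with tetracycline.

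**Figure D2:**
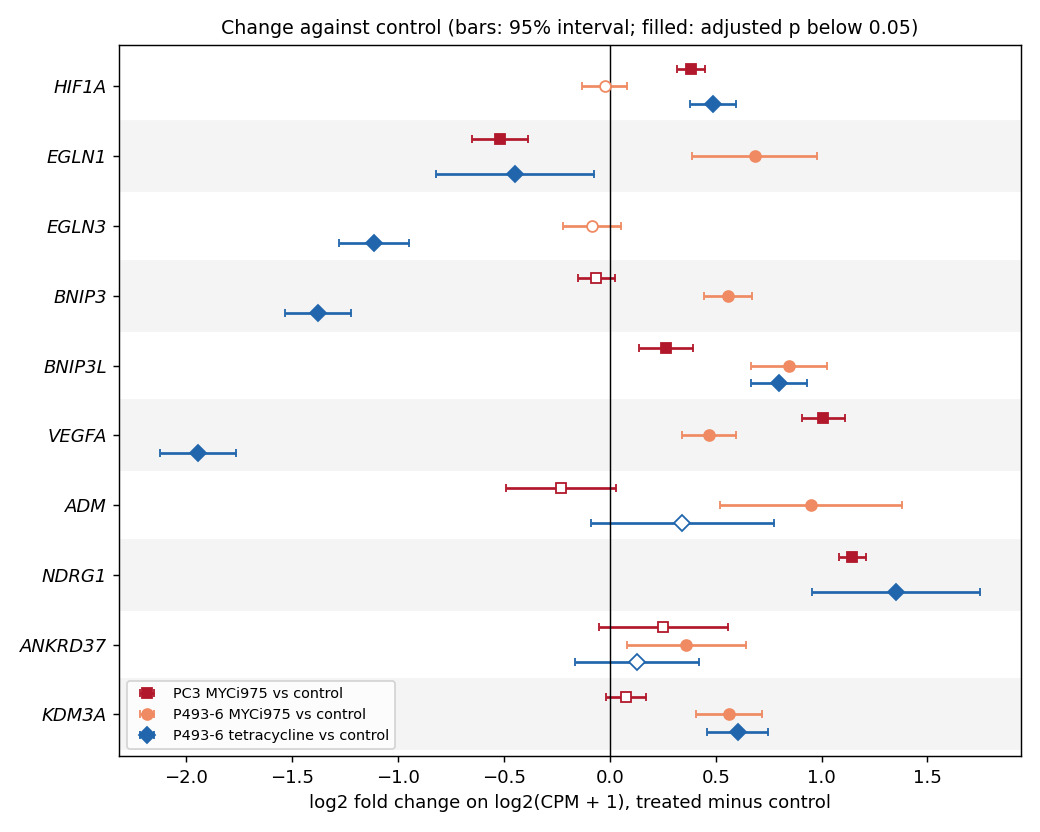
Log2 fold change of each gene on log2(CPM + 1), treated minus control, with 95% intervals, for PC3 MYCi975, P493-6 MYCi975 and P493-6 tetracycline. Filled symbols passed the test; VEGFA lay at 1.01 and 0.47 with MYCi975 and at -1.94 with tetracycline, while BNIP3L and KDM3A lay right of 0 in all 3, KDM3A without passing in PC3.

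HIF1A (ENSG00000100644, hg38 chr14:61695513-61748259, plus strand), the regulated subunit itself, stood at 304, 301 and 315 CPM in PC3 MYCi975 libraries, against 234, 239 and 232 CPM in PC3 controls. Every treated library was above every control, and the gene rose by 0.38 ± 0.0333 log2 units (SE, limma adjusted p = 2.71e-18). In P493-6 the levels were 89.9, 88.6 and 93.8 CPM with MYCi975, 131, 123 and 136 CPM with tetracycline, and 94.5, 94.4 and 88.3 CPM in controls. The MYCi975 and control libraries overlapped and the tetracycline libraries stood above both. The MYCi975 difference was -0.02 (95% interval -0.13 to 0.08, limma adjusted p = 0.765) and took the opposite sign, 0.020, with TMM scaling, while with tetracycline HIF1A rose by 0.49 ± 0.053 (adjusted p = 9.09e-11). An exon of HIF1A overlaps HIF1A-AS1 on the other strand over 117 bases and AL137129.1 on its own strand over 148 bases. The kit marks strand, the strand setting of the counting is not given in the sources used here, and the part of such overlaps in a value was not tested.

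EGLN1 (ENSG00000135766, hg38 chr1:231363751-231425044, minus strand) is the main hydroxylase that marks HIF1A for destruction, and it moved in opposite directions in the 2 lines. It stood at 28.7, 28.2 and 28.8 CPM in PC3 MYCi975 libraries, against 45.3, 36.8 and 42.2 CPM in PC3 controls, and fell by 0.52 log2 units (SE 0.0664, limma adjusted p = 5.88e-11) with no overlap. In P493-6 its level was low, at 7.61, 6.51 and 9.19 CPM with MYCi975, 2.41, 4.53 and 2.32 CPM with tetracycline, and 4.65, 4.42 and 4.19 CPM in controls. The MYCi975 libraries lay above all others, and tetracycline replicate 2 lay among the controls while the other 2 lay below them. EGLN1 rose with MYCi975 by 0.68 ± 0.147 (adjusted p = 0.000296), a value of 0.43 with a pseudocount of 5 CPM. With tetracycline it fell by 0.45 (SE 0.185, adjusted p = 0.0268). That tetracycline call rests on 21 to 37 reads in each tetracycline library and 41 to 54 reads in each control: it was lost with TMM scaling (adjusted p = 0.0554), with edgeR (0.071) and with DESeq2 (0.175) on the recovered reads and without control replicate 1 or 2 or tetracycline replicate 1 or 3, and the fall was 0.69 without tetracycline replicate 2; over the libraries left out singly, adjusted p ran between 0.0013 and 0.143.

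EGLN3 (ENSG00000129521, hg38 chr14:33924231-34462774, minus strand), a sister hydroxylase that is strongly induced by HIF in many cells, is not listed in PC3. In P493-6 it stood at 44.0, 40.0 and 41.3 CPM with MYCi975, 19.1, 20.1 and 20.7 CPM with tetracycline, and 44.0, 43.6 and 45.3 CPM in controls. MYCi975 and control libraries overlapped, and all 3 tetracycline libraries lay far below. It fell by 1.11 log2 units with tetracycline (SE 0.0814, limma adjusted p = 1.19e-15), to 0.45 of the control mean. With MYCi975 the difference was -0.08 (95% interval -0.22 to 0.05, adjusted p = 0.381). Of the 2 sensors, EGLN1 passed the test with MYCi975 and EGLN3 did not, and the difference between these genes was not itself tested.

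BNIP3 and BNIP3L are related outer-membrane receptors that tag mitochondria for removal by autophagy, and both are textbook HIF targets. BNIP3 (ENSG00000176171, hg38 chr10:131966455-131981931, minus strand) stood at 97.4, 89.9 and 97.8 CPM in PC3 MYCi975 libraries, against 100.3, 97.7 and 99.9 CPM in PC3 controls, with overlap and a difference of -0.06 (95% interval -0.15 to 0.02, limma adjusted p = 0.216). Its P493-6 levels were 101, 96.4 and 102.7 CPM with MYCi975, 23.0, 26.2 and 27.3 CPM with tetracycline, and 73.0, 68.2 and 62.4 CPM in controls. The 3 groups did not overlap, with MYCi975 on top and tetracycline at the bottom. BNIP3 rose by 0.56 ± 0.0566 with MYCi975 (adjusted p = 1.16e-10) and fell by 1.38 with tetracycline (SE 0.0774, adjusted p = 2.68e-19). GENCODE 29 names 39 pseudogenes after BNIP3, so reads may be split between copies and the level is uncertain to that extent.

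BNIP3L (ENSG00000104765, hg38 chr8:26382898-26505636, plus strand), known for clearing mitochondria from maturing red cells, stood at 40.1, 38.4 and 39.1 CPM in PC3 MYCi975 libraries, against 33.6, 32.7 and 31.0 CPM in PC3 controls, and rose by 0.27 ± 0.0634 (limma adjusted p = 0.000178). The P493-6 libraries held it at 87.6, 85.9 and 110.2 CPM with MYCi975, 85.7, 94.8 and 92.5 CPM with tetracycline, and 52.6, 56.2 and 47.0 CPM in controls. Both treatments lay above every control and overlapped each other, with MYCi975 replicate 3 the highest. BNIP3L rose by 0.85 ± 0.0847 with MYCi975 (adjusted p = 8.71e-07) and by 0.80 ± 0.065 with tetracycline (adjusted p = 2.99e-14). Under tetracycline the receptor pair therefore went opposite ways, BNIP3 down and BNIP3L up. An exon of BNIP3L overlaps PNMA2 on the other strand over 330 bases.

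VEGFA (ENSG00000112715, hg38 chr6:43770184-43786487, plus strand), the growth factor that drives new vessels, is secreted by many hypoxic tumour cells. It stood at 104, 97.8 and 107 CPM in PC3 MYCi975 libraries, against 51.7, 46.5 and 53.7 CPM in PC3 controls, and rose by 1.01 ± 0.0504 (limma adjusted p = 8.34e-33) with no overlap. P493-6 levels were 66.2, 65.1 and 73.8 CPM with MYCi975, 11.5, 12.1 and 12.4 CPM with tetracycline, and 51.7, 47.8 and 47.8 CPM in controls. Again the 3 groups did not overlap, and the tetracycline libraries lay far below the rest. VEGFA rose by 0.47 ± 0.0625 with MYCi975 (adjusted p = 8.05e-08) and fell by 1.94 with tetracycline (SE 0.0884, adjusted p = 2.47e-22), to 0.245 of the control mean. An exon of VEGFA overlaps the antisense gene AL136131.3 over 188 bases.

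ADM (ENSG00000148926, hg38 chr11:10304680-10307397, plus strand) encodes adrenomedullin, a secreted peptide that widens vessels. It stood at 5.08, 5.53 and 5.51 CPM in PC3 MYCi975 libraries, against 6.09, 5.97 and 7.44 CPM in PC3 controls. The treated libraries lay below every control, yet the difference of -0.23 (95% interval -0.49 to 0.03) did not pass the limma test (adjusted p = 0.123). Among P493-6 libraries it stood at 2.14, 2.47 and 2.20 CPM with MYCi975, 1.15, 0.98 and 1.31 CPM with tetracycline, and 0.48, 1.31 and 0.41 CPM in controls. These are 22 to 25, 8 to 13 and 4 to 16 reads a library, control replicate 2 held the 16, and only the MYCi975 libraries lay clear of the others. ADM rose by 0.95 ± 0.213 with MYCi975 (adjusted p = 0.000521), 3.09-fold on mean CPM, and the value was 1.66 with a pseudocount of 0.1 CPM, 0.35 with that of 5 CPM, 1.59 with edgeR and 1.62 with DESeq2. Among the controls only replicate 2 lay above 1 CPM, so ADM was listed for this comparison only through its MYCi975 libraries. The listing rule thus favoured a rise, and this p-value is not independent support for it. With tetracycline the difference of 0.34 did not pass (limma adjusted p = 0.141). It was 0.57 without control replicate 2 (adjusted p = 0.0293), and adjusted p ran up to 0.424 over the libraries left out singly. There too ADM was listed only through its treated libraries.

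NDRG1 (ENSG00000104419, hg38 chr8:133237171-133302022, minus strand) is a stress-induced gene known to be repressed by MYC proteins and induced at low oxygen. It stood at 469, 463 and 482 CPM in PC3 MYCi975 libraries, against 218, 207 and 213 CPM in PC3 controls, and rose by 1.14 ± 0.0323 (limma adjusted p = 1.32e-52) with no overlap. In the B cell line it stood at 3.21, 3.68 and 2.32 CPM with tetracycline (28, 30 and 23 reads), against 0.58, 0.66 and 0.51 CPM in controls (6, 8 and 5 reads). All tetracycline libraries lay above all controls. It rose by 1.35 ± 0.196 (adjusted p = 7.64e-08), 5.27-fold on mean CPM, and the value was 2.20 with a pseudocount of 0.1 CPM, 0.53 with that of 5 CPM, 2.43 with edgeR and 2.46 with DESeq2. Every control lay under 1 CPM, so NDRG1 was listed for this comparison only through its tetracycline libraries. A gene this low in controls that did not rise would not be listed, so this p-value is not independent support for the rise.

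ANKRD37 (ENSG00000186352, hg38 chr4:185396021-185400628, plus strand), an ankyrin repeat gene used as a hypoxia marker, was low in PC3, at 3.09, 4.04 and 3.53 CPM with MYCi975, against 2.51, 2.99 and 2.96 CPM in controls. Every treated library lay above every control, but the difference of 0.25 did not pass the limma test (95% interval -0.05 to 0.56, adjusted p = 0.155). P493-6 cells carried it at 6.76, 9.67 and 9.58 CPM with MYCi975, 6.54, 7.23 and 7.68 CPM with tetracycline, and 7.08, 6.39 and 5.93 CPM in controls. MYCi975 replicate 1 lay within the controls and the tetracycline libraries overlapped them. The rise of 0.36 ± 0.139 with MYCi975 just passed (adjusted p = 0.0458) and was lost with DESeq2 (adjusted p = 0.0907) and without control replicate 2 or 3 or MYCi975 replicate 2 or 3 (adjusted p 0.00954 to 0.205 over the 6 libraries left out singly). With tetracycline the difference was 0.13 (95% interval -0.17 to 0.42, adjusted p = 0.425). Exons of ANKRD37 and UFSP2, on the other strand, share 909 bases.

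KDM3A (ENSG00000115548, hg38 chr2:86440647-86492716, plus strand), a histone demethylase that removes methyl marks from histone tails and needs oxygen to work, stood at 91.0, 81.7 and 85.7 CPM in PC3 MYCi975 libraries, against 78.6, 81.6 and 84.8 CPM in PC3 controls. These groups overlapped, with a difference of 0.08 (95% interval -0.02 to 0.17, limma adjusted p = 0.161). In P493-6 it stood at 69.1, 64.0 and 78.9 CPM with MYCi975, 69.1, 75.0 and 73.7 CPM with tetracycline, and 52.6, 48.6 and 41.6 CPM in controls. Both treatments lay above every control and overlapped each other. KDM3A rose by 0.56 ± 0.0759 with MYCi975 (adjusted p = 1.49e-06) and by 0.60 ± 0.0706 with tetracycline (adjusted p = 6.85e-10).

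Across all 5 groups the order of levels differed from gene to gene, and levels in PC3 and P493-6 come from separate tables. HIF1A was highest in PC3 MYCi975 libraries and lowest in P493-6 MYCi975 libraries, at 306 and 90.8 CPM, and only P493-6 control and P493-6 MYCi975 overlapped as neighbours in its order. For BNIP3, P493-6 MYCi975, PC3 control and PC3 MYCi975 overlapped in sequence at 100.2, 99.3 and 95.05 CPM, above P493-6 control and then tetracycline. VEGFA ran in the order PC3 MYCi975, P493-6 MYCi975, PC3 control, P493-6 control and tetracycline, and the 2 control groups overlapped at 50.6 and 49.1 CPM. BNIP3L was higher in every P493-6 group than in PC3, while EGLN1 and ADM were higher in both PC3 groups than in any P493-6 group. KDM3A was so on average only, as P493-6 MYCi975 replicate 3 (78.9 CPM) lay above PC3 control replicate 1 (78.6 CPM). NDRG1 averaged 213 CPM in PC3 controls and 0.583 CPM in P493-6 controls.

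Set directly against tetracycline in P493-6, MYCi975 libraries had far more VEGFA, BNIP3, EGLN1 and EGLN3 and less HIF1A. VEGFA was 5.69-fold higher (log2 difference 2.41 ± 0.0768, limma adjusted p = 5.34e-32) and BNIP3 3.93-fold higher (1.94 ± 0.0679, adjusted p = 3.26e-30). EGLN1 differed by 1.13 ± 0.173 (adjusted p = 9.14e-08), a value of 0.66 with a pseudocount of 5 CPM, and EGLN3 by 1.03 ± 0.0765 (adjusted p = 3.93e-17). ADM differed by 0.61 ± 0.212 (adjusted p = 0.00904); it was 0.93 with a pseudocount of 0.1 CPM, 0.24 with that of 5 CPM and 0.88 with DESeq2, where it did not pass (adjusted p = 0.0656). ADM was listed only through its treated libraries with either treatment. HIF1A was lower with MYCi975 (-0.51 ± 0.0527, adjusted p = 2.35e-12). In all 5 of 9 members were higher with MYCi975, 1 was lower and 3 did not pass, where 76.2% of 12860 genes were called, 42.3% higher and 33.9% lower. With TMM scaling the calls over all genes split into 4884 higher and 4929 lower here, against 5438 and 4356 as reported. The groups did not overlap for the same numbers of members, 5 higher and 1 lower, as for 42.7% and 34.2% of all genes (76.9% either way).

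The 3 that did not pass were BNIP3L, KDM3A and ANKRD37. For BNIP3L the difference was 0.05 with a 95% interval of -0.11 to 0.21, and for KDM3A it was -0.04 with an interval of -0.19 to 0.11, so neither bound reached the 0.80 and 0.60 by which these genes rose with tetracycline. BNIP3L turned to -0.056 with TMM scaling, and KDM3A was at -0.14 with edgeR, where it passed (adjusted p = 0.0397). ANKRD37 differed by 0.23 (95% interval -0.05 to 0.52), and by 0.39 without MYCi975 replicate 1 (adjusted p = 0.0245, and 0.0245 to 0.394 over the libraries left out singly). The 2 treatments share their control libraries, so their changes against control are not independent of each other.

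**Figure D3:**
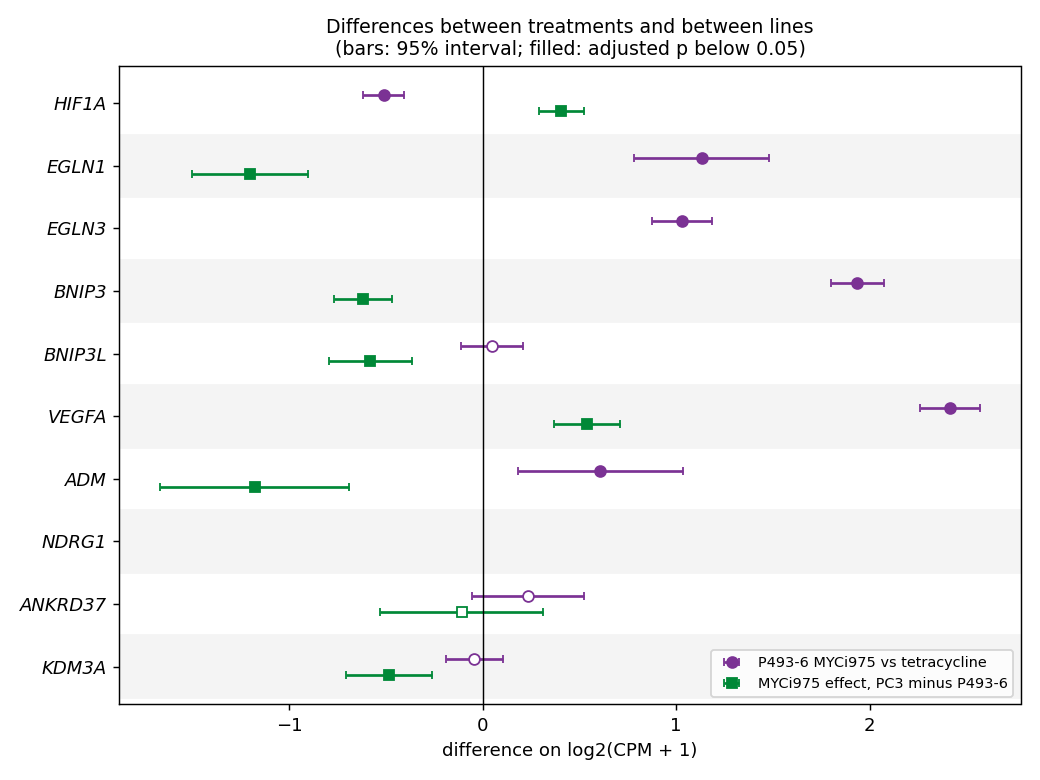
Differences on log2(CPM + 1) with 95% intervals: MYCi975 minus tetracycline in P493-6 (circles) and the MYCi975 change in PC3 minus that in P493-6 (squares), filled where the test passed. VEGFA at 2.41 and BNIP3 at 1.94 stood farthest right between treatments, and EGLN1 at -1.20 and ADM at -1.18 farthest left between lines; NDRG1 and, between lines, EGLN3 are not in both tables.

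The same compound changed these genes differently in the 2 lines. A line by treatment term in limma covered the 8 members listed in both MYCi975 tables: 2 had the higher change in PC3 (HIF1A and VEGFA), 5 the higher change in P493-6 (EGLN1, ADM, BNIP3, BNIP3L and KDM3A) and ANKRD37 did not pass, where 36.3% of 11240 genes were called, 18.1% with the higher change in PC3 and 18.2% with the lower. EGLN1 differed by -1.20 ± 0.148 (adjusted p = 1.99e-08), from a fall in PC3 and a rise in P493-6. ADM differed by -1.18 ± 0.241 (adjusted p = 0.000145), or -0.49 and -1.92 with pseudocounts of 5 and 0.1 CPM, -1.84 with edgeR and -1.84 with DESeq2, so which of these 2 genes had the wider gap depended on the setting. In P493-6 ADM was listed with MYCi975 only through its treated libraries, so its gap is not independent of the listing rule. BNIP3 differed by -0.62 ± 0.0737 (adjusted p = 8.6e-09) and KDM3A by -0.48 ± 0.107 (adjusted p = 0.00101), each with a rise in P493-6 and a change in PC3 that did not pass. BNIP3L and VEGFA rose in both lines, BNIP3L less in PC3 (-0.58 ± 0.105, adjusted p = 5.16e-05) and VEGFA more in PC3 (0.54 ± 0.084, adjusted p = 2.1e-06). HIF1A differed by 0.41 ± 0.0579 (adjusted p = 3.98e-07), and ANKRD37 by -0.11 with a 95% interval of -0.53 to 0.31. PC3 received 8 µM and P493-6 received 6 µM, so line and dose cannot be told apart.

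The lists used from here on were chosen with earlier results of these data known, so their counts are not independent support for a pattern. Of 15 pathway components on a list drawn up for this purpose, 14 were tested in PC3, where 6 rose, 1 fell and 7 did not pass with MYCi975 (median 0.08, against -0.002 over all genes, of which 59.2% were called). VHL, which recognises the marked subunit, stood at 44.4 ± 4.22 CPM in PC3 MYCi975 libraries and 30.2 ± 1.76 CPM in controls (SD, n = 3 each; log2 change 0.54, limma adjusted p = 8.6e-12), the partner ARNT rose by 0.31, and EPAS1, the sister alpha subunit also called HIF2A, fell by 0.31. HIF1A-AS2, an RNA named as antisense to HIF1A, stood at 14.2, 17.6 and 13.6 CPM with MYCi975 and 2.64, 2.14 and 2.58 CPM in controls, a rise of 2.22 ± 0.128 (adjusted p = 3.93e-29), with the caution about strand given above. EGLN2, a further hydroxylase, rose by 0.25, and CITED2, an inhibitor that competes for the coactivators, by 0.23.

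In P493-6, 5 of the 11 components tested fell with MYCi975 and the other 6 did not pass (median -0.17, against -0.04 over all genes, of which 28.6% were called). The 5 were VHL (41.4 ± 2.84 CPM with MYCi975 and 53.9 ± 4.7 CPM in controls; fell by 0.37, limma adjusted p = 4.21e-05), CITED2 (-0.32), and the ligase parts RBX1 (-0.30), ELOC (-0.27) and CUL2 (-0.21). The VHL change differed between the lines by 0.91 ± 0.103, PC3 minus P493-6 (adjusted p = 3.7e-09), and 5 of the 11 components had the higher change in PC3, the others being CITED2, ARNT, CUL2 and ELOC. Of all genes, 36.3% were called in that term, 18.1% with the higher change in PC3. With tetracycline, 6 of 11 rose and 5 fell, where 78.1% of all genes were called. The coactivators CREBBP and EP300 rose by 0.85 and 0.72, EGLN2 by 0.72 and HIF1AN, which blocks the coactivator contact of HIF1A, by 0.53. The elongins ELOC and ELOB, which link VHL to its ligase, fell by 0.98 and 0.83. Against tetracycline, MYCi975 libraries were lower in 6 of 11, including EGLN2 (-0.90), CREBBP (-0.89), EP300 (-0.76) and CITED2 (-0.60), and higher in 2, ELOB (0.74) and ELOC (0.71), where 76.2% of all genes were called.

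A wider list of 50 other HIF targets, with genes of glycolysis, collagen processing and transport among them, was evenly split in PC3 given MYCi975: 17 of 43 tested rose and 16 fell (median 0.04). Of all genes tested there, 59.2% were called, 29.0% higher and 30.1% lower. MXI1, a MYC antagonist, rose by 1.02 (23.3 ± 1.16 CPM with MYCi975, 10.9 ± 0.51 CPM in controls). LDHA, the enzyme that turns pyruvate into lactate, fell by 1.01 (740.3 ± 12.3 CPM with MYCi975, 1488 ± 34.3 CPM in controls). TMEM45A (0.65) and the cyclin CCNG2 (0.57) also rose, and the JmjC oxygenase gene JMJD6 fell by 0.61. Each passed the limma test at an adjusted p of 9.68e-05 or less.

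In P493-6 the same compound gave a lopsided pattern. Of 40 targets tested, 25 rose, 1 fell (TFRC, the transferrin receptor, by 0.40) and 14 did not pass. Their median was 0.26, against -0.04 over all genes, of which 28.6% were called, 10.6% higher and 18.0% lower. NDUFA4L2 and MIR210HG, with only control replicate 3 above 1 CPM, were among the 40 only through their MYCi975 libraries. The listing rule favoured rises of such genes. The largest changes were of the glycolytic regulator PFKFB4 (36.6 ± 2.10 CPM with MYCi975, 17.7 ± 2.89 CPM in controls; 1.02, limma adjusted p = 7.52e-12), the glucose carrier SLC2A3 (0.95), PPFIA4 (0.91), PDK1 (0.87 ± 0.0664, adjusted p = 3.31e-14), which holds pyruvate back from mitochondria, the aldolase ALDOC (0.82) and the collagen hydroxylase P4HA1 (0.78). LDHA did not pass here, at 1547 ± 41.9 CPM with MYCi975 and 1563 ± 12.5 CPM in controls (difference -0.02, adjusted p = 0.79). Between the lines, 22 of the 36 targets tested had the lower change in PC3, 5 had the higher and 9 did not pass. Over all genes, 36.3% were called, 18.2% with the lower change in PC3 and 18.1% with the higher. PDK1 (-1.22), PFKFB4 (-1.05), LDHA (-0.99), ZNF395 (-0.83), PPFIA4 (-0.79) and PLOD1 (-0.67) differed most.

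With tetracycline, 14 of 40 of these targets rose and 20 fell (median -0.24), where 78.1% of all genes were called, 36.2% higher and 41.9% lower. LDHA stood at 293 ± 6.90 CPM with tetracycline and fell by 2.41, and FAM162A, a mitochondrial protein, HK2 and ENO1, both of glycolysis, fell by 2.35, 2.13 and 2.11. LDHA, HK2 and ENO1 are also textbook MYC targets. SLC2A3 rose by 3.24, to 56.4 ± 4.14 CPM with tetracycline against 5.21 ± 1.49 CPM in controls, and CCNG2 by 2.31; all 6 passed the limma test at an adjusted p of 6.9e-19 or less. Set against tetracycline directly, 22 of 39 were higher with MYCi975 and 13 lower, among them FAM162A (2.61), LDHA (2.40), PFKFB4 (2.32), HK2 (2.32), MXI1 (2.28) and SLC2A3 (-2.29). Over all genes of that contrast, 76.2% were called, 42.3% higher and 33.9% lower.

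**Figure D4:**
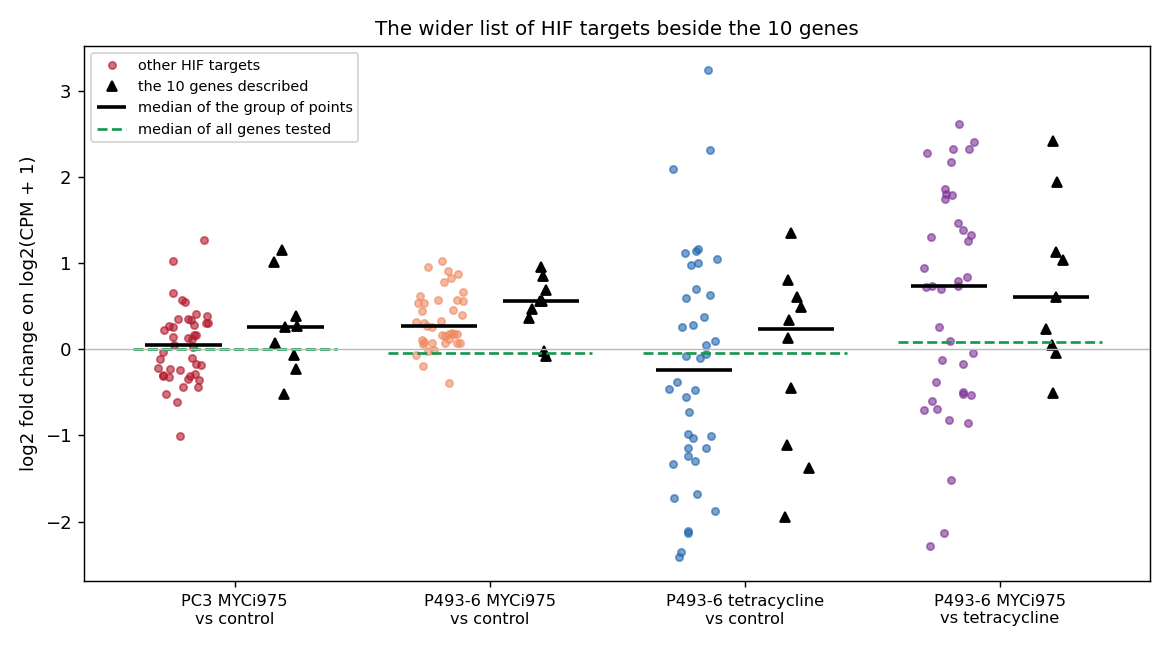
Log2 fold changes on log2(CPM + 1) of the other HIF targets (circles, coloured by comparison) and the 10 genes (triangles) in 4 comparisons, with the median of each group of points (black) and of all genes tested (dashed). The other targets spread to both sides in PC3 (median 0.04) and lay mostly above 0 in P493-6 given MYCi975 (median 0.26), and those of the tetracycline comparison ran between -2.41 and 3.24.

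Integrated stress response genes, which ATF4 switches on when amino acids or protein folding fail, rose in the MYCi975 libraries of both lines. The list was chosen with earlier results of these data known, so its counts are not independent support for a rise. All 11 on the list rose in PC3 (median 2.72), with TRIB3 at 3.73, DDIT4 at 3.29, CHAC1 at 3.03, SESN2 at 2.99, DDIT3 at 2.93 and ASNS at 2.72. Over all PC3 genes, 59.2% were called, 29.0% higher. All 11 also rose in P493-6 given MYCi975 (median 1.15), with VLDLR at 2.05, CHAC1 at 1.77, STC2 at 1.44, ATF3 at 1.29, DDIT4 at 1.25 and DDIT3 at 1.15. CHAC1 was not listed with tetracycline, on the same controls, so with MYCi975 it was listed only through its treated libraries. Its P493-6 rise is therefore not independent of the listing rule. Over all genes there, 28.6% were called, 10.6% higher. With tetracycline 5 of 10 rose and 5 fell, PSAT1, STC2, ASNS and ATF4 by 3.09, 2.11, 1.61 and 1.08, while ATF3 and DDIT4 rose by 1.45 and 0.98. A call was common there, at 78.1% of all genes, 36.2% higher and 41.9% lower. Against tetracycline, 8 of 10 were higher with MYCi975, led by PSAT1 (3.56), STC2 (3.55), ASNS (2.34) and ATF4 (1.39), where 76.2% of all genes were called, 42.3% higher. ATF4 itself stood at 363 ± 12.1 CPM in PC3 MYCi975 libraries and 99.8 ± 2.35 CPM in PC3 controls, and at 356 ± 7.24 CPM with MYCi975, 135.0 ± 3.96 CPM with tetracycline and 286 ± 12.05 CPM in controls in P493-6. Between the lines 10 of 11 had the higher change in PC3 (median 1.54), where 36.3% of all genes were called, 18.1% with the higher change in PC3. The part of this response in the changes of the 10 genes was not tested.

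How the members ran together was described over the 9 P493-6 libraries, which form 3 groups and share their controls, so the correlations mostly follow the group means. Of 36 pairs, 4 had Pearson's r above 0.9 and 12 were below 0. BNIP3 and VEGFA ran closest (r = 0.993), followed by BNIP3L with KDM3A (0.975), EGLN3 with VEGFA (0.964) and EGLN3 with BNIP3 (0.934). HIF1A ran against 3 of these, with r of -0.972 to EGLN3, -0.964 to VEGFA and -0.939 to BNIP3. The receptors BNIP3 and BNIP3L had r = -0.165. Among genes that are not members, those most like the mean of the 9 members over these libraries were ALDOC (r = 0.976), RPL4 (0.969), DNAJC10 (0.966), ZNF12 (0.963) and ERN1 (0.959). ALDOC is on the list of other HIF targets. With 12 of 36 pairs below 0, this mean is not a pattern that all members share.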

How the data were processed

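RNA from 15 cell line libraries was measured by sequencing of exon-capture libraries from a strand-marking kit, per the labels' protocols. The submitters' processing notes name STAR, HTSeq, edgeR and hg38, with no versions. The deposited tables, made by the authors, hold CPM per gene and library, log2 fold changes, p-values and marks of up or down; these marks and signs were used only where the authors' deposited table is named. The 3 P493-6 control columns are identical in both P493-6 tables. CPM values were whole multiples of the value of 1 read (100.0% within 0.001 reads), which gave read totals of 8162582 to 15926008; low genes are limited by counting error.

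Groups followed the labels. The 5 comparisons were fitted on log2(CPM + 1) over all listed genes with limma 3.58.1 (R 4.3.3; trend and robust options; two-sided; Benjamini-Hochberg; call at adjusted p under 0.05), without a replicate block. The alternatives were pseudocounts of 0.1 and 5, mean CPM of at least 5, TMM, edgeR 4.0.16 and DESeq2 1.42.0 on recovered reads, a block on replicate number, and leaving out each library; the test was also tried on simulated data. Replicates of a group differed by more than counting noise (chi-square per gene 2.07 to 6.06), so none was counted as a repeat of another. Named genes were the 10 members, MYC and the 5 most like the members, with TFRC, NDUFA4L2 and MIR210HG added after their values were seen. From each list (HIF pathway components, other HIF targets, integrated stress response) up to 6 called genes with the largest change per comparison were named. A gene that this rule names is not reported here. Markers of both lines were listed. The members and lists were chosen with earlier results of these data known. Promoters are from RefSeq (GRCh38.p14), overlaps from GENCODE 29. Levels were not compared between genes.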

Additional observations from a re-analysis of the deposited data

Results flagged for a closer look

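The MYCi975 change differed between PC3 and P493-6 in the line by treatment term for 7 of 8 members (limma, adjusted p under 0.05, log2 change in PC3 minus that in P493-6, 3 libraries a group). Of all 11240 genes tested, 36.3% were called in that term, 18.1% with the higher change in PC3 and 18.2% with the lower. EGLN1 differed by -1.20, with all PC3 MYCi975 libraries below all PC3 controls and all P493-6 MYCi975 libraries above all P493-6 controls. ADM differed by -1.18 in the same pattern, on 4 to 25 reads a library in P493-6. It was listed there only through its MYCi975 libraries. The difference was -0.62 for BNIP3, -0.58 for BNIP3L and -0.48 for KDM3A, each with the higher change in P493-6. It was 0.54 for VEGFA and 0.41 for HIF1A, each with the higher change in PC3. The doses were 8 µM in PC3 and 6 µM in P493-6, so line and dose cannot be told apart.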

How the results depend on the processing

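Over the alternatives, 628 values of single members kept direction and call, 14 lost the call, 3 gained it and 8 changed sign; of the counts, 367 stayed within 1.5 times and 3 moved. HIF1A with MYCi975 in P493-6 turned to 0.020 with TMM, 0.019 with edgeR and 0.018 with DESeq2. Against tetracycline, BNIP3L turned to -0.056 with TMM, -0.051 with edgeR, -0.044 with DESeq2 and -0.068 without P493-6 MYCi975 replicate 3 (-0.068 to 0.11 over the libraries left out singly), and KDM3A to 0.025 without MYCi975 replicate 2 (-0.12 to 0.025). All of these were uncalled. Genes called with MYCi975 in P493-6 numbered 2447 with DESeq2, against 3713; members lower than with tetracycline numbered 2 with edgeR, against 1; and other HIF targets that fell with MYCi975 in P493-6 ranged from 1 to 2 over the libraries left out singly, 2 without control replicate 3. The causes were not tested.

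Replicate numbers did not pair the libraries (correlations of same-numbered deviations -0.112 to 0.0559). With a replicate block, ANKRD37 with MYCi975 in P493-6 no longer passed (adjusted p = 0.0616), so 6 members rose there; no other member's call changed. Depth limits ADM, NDRG1 and EGLN1 in P493-6, which held few reads a library.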
